A study of Mus musculus with 10 samples.

Results

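The core loop of the circadian clock was followed in 5 RNA-seq libraries from stressed mice and 5 from non-stressed mice. The loop was taken as 10 genes, given by name and matched by Ensembl gene ID among the 48526 genes of the table. There were 3 activators (Arntl, Clock and Npas2) and 7 repressors (Per1, Per2, Per3, Cry1, Cry2, Nr1d1 and Nr1d2). The stressed group had acute mental stress for 3 h on each of 3 consecutive days before the aorta was removed, and the non-stressed group did not. Both groups carry the strain label ApoE, with no further genotype, and the labels call the material endothelial cells of the aorta, isolated by fluorescence-activated sorting. The labels give neither the age of the animals nor the hour at which tissue was collected, and do not say whether a library came from 1 animal or a pool, so that p-values measure the spread between these libraries.

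In the mammalian clock, the proteins of Clock or its paralogue Npas2 pair with BMAL1, the product of Arntl, and switch on genes that carry E-box sequences. Among these genes are the Per and Cry genes, whose proteins return to the nucleus and block the activators, and Nr1d1 and Nr1d2, which encode REV-ERB alpha and beta, nuclear receptors that silence Arntl through ROR elements. In mouse monocytes and in endothelium this oscillator is known to time chemokine and adhesion gene expression over the day, so the transcripts of the loop normally vary with the hour.

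Total counts ran from 18020220 to 38237346 per library, and the scaling factors of TMM, edgeR's trimmed-mean normalization, lay between 0.990 and 1.01. Levels are given in CPM, counts per 1000000 after that scaling. A count of 0 allows up to 0.0785 to 0.166 CPM per library, taken as 3 counts, a limit that covers counting error only. The libraries went against their cell type label: Cdh5, the endothelial cadherin, had 115 reads in all and Nos3, the endothelial nitric oxide synthase, was at 0 in 8 of 10 libraries. Vwf, the von Willebrand factor gene that platelets share with endothelium, and Pecam1, which leukocytes and platelets also express, were read in every library, at 15.9 to 44.7 CPM and 12.3 to 46.7 CPM. Csf1r and Lyz2, genes of monocytes and macrophages, lay at 2320 to 2767 CPM and 15600 to 26710 CPM. The clock values below are therefore those of libraries with abundant myeloid transcripts, and in such bulk samples fewer cells of a type and less RNA per cell cannot be told apart. Of the 10 libraries, 4 held the X-inactivation transcript Xist (2 per group) and 6 held Y-linked transcripts (3 per group).

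All 7 repressor genes had higher mean levels in the stressed libraries, while neither of the tested activators did so by more than its error. Of the 10 genes, 9 passed the low-count filter and Npas2 did not. None of the 9 passed edgeR's quasi-likelihood test after Benjamini-Hochberg adjustment over 13334 genes, where 0.0075% of all genes did so. At an unadjusted p under 0.05 there were 6 of the 9, all of them repressors with higher levels. Of all genes tested, 5.53% had such a p, 2.59% as higher and 2.95% as lower. For 3 of the 9 (Nr1d1, Cry1 and Nr1d2) every library of the stressed group exceeded every library of the other, against 0.592% of all genes. The reverse order held for 0 of the 9, against 0.517% of all genes. The median log2 fold change was 0.54 over the repressors, -0.11 over Arntl and Clock, and 0.0045 over all genes tested. DESeq2 placed 2 of the genes, Nr1d1 and Cry1, past the adjusted threshold, where 19 of all 16598 genes it tested were past it. The limma-voom fit placed 0, where 2 of all 13334 genes were past it.

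The sequences just upstream of 5 of these genes are shown because the loop acts through short elements there, and because they belong to the 4 repressors with the smallest p in edgeR and to the target of the REV-ERB proteins. Each is the RefSeq window of GRCm38.p6, the assembly of mm10, from 250 bases before to 50 bases after an annotated start, 5′ to 3′ on the gene's strand. RefSeq windows were matched for 9 of the 10 genes; Per2 had none. Capitals mark matches, on either strand, to the E-box CACGTG, the E′-box CACGTT, the ROR element core AGGTCA, the D-box TTANGTAA bound by Tef, Dbp and Nfil3, and the cAMP response element TGACGTCA; no matches overlapped.
Nr1d1, chr11:98775328-98775627, minus strand: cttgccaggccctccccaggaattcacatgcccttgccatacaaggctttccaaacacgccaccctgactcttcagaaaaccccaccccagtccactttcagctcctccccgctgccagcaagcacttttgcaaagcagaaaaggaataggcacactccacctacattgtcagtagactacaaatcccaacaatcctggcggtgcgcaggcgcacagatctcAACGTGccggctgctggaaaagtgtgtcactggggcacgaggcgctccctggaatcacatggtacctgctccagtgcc
Cry1, chr10:85185005-85185304, minus strand: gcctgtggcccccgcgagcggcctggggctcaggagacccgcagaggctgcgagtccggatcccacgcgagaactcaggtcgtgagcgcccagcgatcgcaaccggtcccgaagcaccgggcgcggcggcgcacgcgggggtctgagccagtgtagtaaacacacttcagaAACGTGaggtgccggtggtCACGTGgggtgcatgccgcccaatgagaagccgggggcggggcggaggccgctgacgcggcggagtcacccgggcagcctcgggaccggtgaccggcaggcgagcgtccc
Nr1d2, chr14:18239057-18239356, minus strand: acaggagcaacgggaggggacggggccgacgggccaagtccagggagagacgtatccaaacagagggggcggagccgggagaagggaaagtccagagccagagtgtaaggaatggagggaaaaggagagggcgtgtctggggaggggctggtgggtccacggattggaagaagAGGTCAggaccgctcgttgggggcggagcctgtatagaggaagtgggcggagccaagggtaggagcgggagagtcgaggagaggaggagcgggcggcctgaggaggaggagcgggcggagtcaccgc
Per3, chr4:151044616-151044915, minus strand: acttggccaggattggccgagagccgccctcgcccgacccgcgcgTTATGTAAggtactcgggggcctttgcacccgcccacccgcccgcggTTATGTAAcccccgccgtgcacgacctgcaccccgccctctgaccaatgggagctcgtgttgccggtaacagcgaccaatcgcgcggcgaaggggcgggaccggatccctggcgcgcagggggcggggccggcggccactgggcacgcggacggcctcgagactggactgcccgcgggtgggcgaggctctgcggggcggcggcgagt
Arntl, chr7:113207261-113207560, plus strand: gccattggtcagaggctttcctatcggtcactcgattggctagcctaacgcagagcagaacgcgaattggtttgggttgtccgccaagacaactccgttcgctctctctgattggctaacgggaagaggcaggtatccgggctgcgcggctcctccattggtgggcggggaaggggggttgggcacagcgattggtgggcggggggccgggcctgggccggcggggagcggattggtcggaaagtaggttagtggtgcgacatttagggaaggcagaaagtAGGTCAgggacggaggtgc

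Cry1 had an E-box 60 bases before its start and an E′-box 79 bases before it, and Nr1d1 had an E′-box 28 bases before its start. Per3 had D-boxes 205 and 158 bases before its start, both reading TTATGTAA. Nr1d2 had the ROR element core 77 bases before its start. Arntl had it 31 bases after the start used for the window shown, and no match in its other window (chr7:113207215-113207514). In the windows not shown, Per1 had an E-box 166 bases and a ROR element core 137 bases before 1 of its starts, Cry2 an E′-box 166 bases before its start, Clock a ROR element core 119 bases before 1 of its starts, and Npas2 no match. Of 32851 RefSeq windows of the same length, 7.15% held an E-box, 4.68% an E′-box, 16.3% the ROR element core, 2.32% a D-box and 1.79% a cAMP response element. These matches are descriptions of the letters, not sites shown to be bound.

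Nr1d1, the gene of REV-ERB alpha, had the largest fold change of the loop. It lies on chromosome 11 from 98767932 to 98775333 on the minus strand (ENSMUSG00000020889, mm10). Its levels were 2.77, 7.36, 9.37, 8.01 and 4.59 CPM in stressed libraries 1 to 5, against 1.43, 1.88, 2.50, 1.86 and 2.19 CPM in non-stressed libraries 1 to 5. The groups did not overlap, but the gap was narrow. The lowest stressed library, number 1, had 2.77 CPM from 60 reads, and the highest non-stressed one, number 3, had 2.50 CPM from 88 reads. On the log2 scale the fold change was 1.70 (SE 0.37, 95% interval 0.91 to 2.49, edgeR adjusted p = 0.429), or 3.25-fold. The exact permutation test over the 10 libraries (two-sided, 252 assignments) gave p = 0.00794, the smallest it can give, and an adjusted p of 0.696 over all genes tested. In DESeq2 the adjusted p was 0.0074. The reads behind these values were 60 to 242 per stressed and 35 to 88 per non-stressed library. Thra, a thyroid hormone receptor gene on the opposite strand, shares 263 exonic bases with Nr1d1, which is 8.55% of the Nr1d1 exons. Thra stood at 17.6 to 24.2 CPM in stressed and 6.93 to 17.7 CPM in non-stressed libraries (log2 fold change 0.64, SE 0.22, edgeR adjusted p = 0.829). No source used here states whether strand was used in counting, and how far reads of the shared bases enter either value is uncertain.

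Nr1d2, the gene of REV-ERB beta, was expressed at a higher level than Nr1d1 and differed less. It lies on chromosome 14 from 18204054 to 18239127 on the minus strand (ENSMUSG00000021775). Its levels were 31.1, 36.4, 35.5, 27.9 and 27.9 CPM in stressed libraries 1 to 5, against 23.1, 25.7, 26.1, 23.7 and 19.1 CPM in non-stressed libraries 1 to 5. The gap between the groups was narrow, from 27.9 CPM in the lowest stressed library to 26.1 CPM in the highest non-stressed one. Nr1d2 had a log2 fold change of 0.43 (SE 0.13, 95% interval 0.16 to 0.71, edgeR adjusted p = 0.778). The exact permutation p was 0.00794, the smallest possible, which groups that do not overlap always give. Adjusted over all genes tested, this permutation p was 0.696.

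Cry1 encodes the cryptochrome that is the strongest repressor of the activator pair in mouse cells. The gene lies on chromosome 10 from 85131700 to 85185064 on the minus strand (ENSMUSG00000020038), and no annotated gene overlaps it. Its levels were 31.3, 37.65, 28.2, 30.3 and 31.3 CPM in stressed libraries 1 to 5, against 22.6, 20.3, 24.1, 20.4 and 23.1 CPM in non-stressed libraries 1 to 5. Every stressed library was above every non-stressed one, and both groups were tight, at 31.8 ± 3.53 and 22.1 ± 1.69 CPM (SD, n = 5 each). Cry1 had a log2 fold change of 0.53 (SE 0.12, 95% interval 0.28 to 0.77, edgeR adjusted p = 0.429, DESeq2 adjusted p = 0.0317), or 1.44-fold. It ranked 13 of 13334 genes by p, and Nr1d1 ranked 9.

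Cry2, the second cryptochrome, had a similar mean difference with a wider spread. The gene lies on chromosome 2 from 92403646 to 92434043 on the minus strand. Its levels were 7.47, 15.3, 11.3, 8.61 and 17.3 CPM in stressed libraries 1 to 5, against 7.87, 8.41, 7.88, 7.09 and 10.1 CPM in non-stressed libraries 1 to 5. Stressed libraries 2, 3 and 5 lay above the non-stressed range, and libraries 1 and 4 within it. Cry2 had a log2 fold change of 0.54 (SE 0.24, 95% interval 0.024 to 1.05, edgeR adjusted p = 0.882).

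Per3, the Period gene whose loss leaves the mouse clock running, was low in these libraries and separated the groups in all but 1 library of each. It lies on chromosome 4 from 151003652 to 151044665 on the minus strand. Its levels were 5.63, 4.83, 4.40, 5.56 and 3.43 CPM in stressed libraries 1 to 5, against 1.88, 3.08, 1.503, 2.34 and 3.58 CPM in non-stressed libraries 1 to 5. Stressed library 5 and non-stressed library 5 were the pair that overlapped. Per3 had a log2 fold change of 0.95 (SE 0.35, 95% interval 0.20 to 1.69, edgeR adjusted p = 0.874). The exact permutation p was 0.0159, or 0.696 adjusted over all genes tested.

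Per1 and Per2 are the Period genes that acute signals such as glucocorticoids and cAMP also induce. Per1, on chromosome 11 from 69095217 to 69109960, stood at 112.6, 156.6, 132.7, 66.4 and 101.5 CPM in stressed libraries 1 to 5, against 121.9, 56.1, 56.7, 89.8 and 70.9 CPM in non-stressed libraries 1 to 5. The groups overlapped widely, since non-stressed library 1 was above 3 stressed libraries and stressed library 4 was below 3 non-stressed ones. The log2 fold change was 0.53 (SE 0.23, 95% interval 0.039 to 1.02, edgeR adjusted p = 0.874), and 0.33 with the erythroid marker level as a covariate. Per2, on chromosome 1 from 91415982 to 91459324, stood at 6.78, 11.4, 6.30, 8.08 and 4.05 CPM in stressed libraries 1 to 5, against 5.18, 4.05, 5.105, 3.96 and 6.29 CPM in non-stressed libraries 1 to 5. Stressed library 2 was the highest and stressed library 5 lay at the bottom of the non-stressed range. The log2 fold change of Per2 was 0.58 (SE 0.29, 95% interval -0.043 to 1.196, edgeR adjusted p = 0.895); it was 0.35 without stressed replicate 2 and 0.37 when the neutrophil level entered as a covariate.

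The activators gave no difference of this kind. Arntl, the gene of BMAL1, lies on chromosome 7 from 113207465 to 113314126 on the plus strand. Its levels were 10.6, 14.15, 19.0, 13.9 and 13.1 CPM in stressed libraries 1 to 5, against 22.8, 15.1, 13.3, 19.0 and 16.15 CPM in non-stressed libraries 1 to 5. Stressed libraries 1 and 5 were below the non-stressed range and the other 3 within it. The log2 fold change was -0.29 (SE 0.19, 95% interval -0.69 to 0.11, edgeR adjusted p = 0.948). It was -0.17 without non-stressed replicate 1, -0.088 in limma-voom with quality weights, and -0.083 without replicate 1 of both groups, the libraries farthest out on the principal components. Clock, the partner of BMAL1, lies on chromosome 5 from 76209868 to 76304792 on the minus strand. Its levels were 73.2, 72.6, 69.1, 55.7 and 48.5 CPM in stressed libraries 1 to 5, against 54.2, 59.6, 54.2, 69.4 and 65.9 CPM in non-stressed libraries 1 to 5. The ranges overlapped almost fully and the stressed libraries spread more widely. The log2 fold change was 0.073 (SE 0.13, 95% interval -0.20 to 0.34, edgeR adjusted p = 0.985). That interval lies below the estimate of 0.53 for Cry1 but overlaps the interval of Cry1, 0.28 to 0.77. The difference between Clock and Cry1 was not tested. Npas2, the paralogue of Clock, lies on chromosome 1 from 39193731 to 39363236 and was barely detected. It had 0, 19, 5, 11 and 17 reads in stressed libraries 1 to 5, against 0, 1, 1, 16 and 20 reads in non-stressed libraries 1 to 5, or at most 0.843 CPM.

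**Figure D1:**
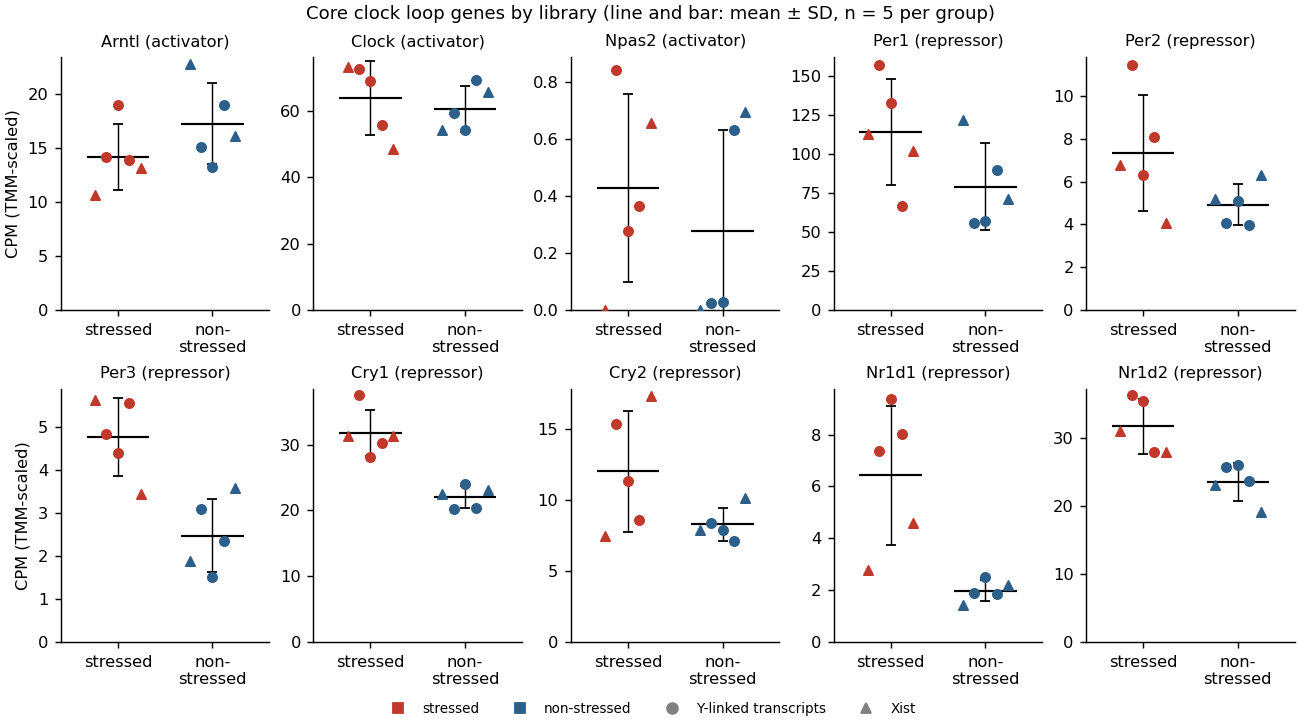
Levels of the 10 loop genes in every library, in TMM-scaled CPM on linear axes that start at 0; points are libraries (circles with Y-linked transcripts, triangles with Xist) and lines with bars are means ± SD of 5 libraries per group. The stressed libraries of Cry1 (28.2 CPM and above) and Nr1d2 (27.9 CPM and above) lie wholly above the non-stressed ones, and those of Nr1d1 (2.77 CPM and above) likewise, while Clock and Arntl overlap.

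Set against each other within each library on the log2(CPM + 1) scale, the arms separated the groups. The mean of log2(CPM + 1) over the 7 repressors was 4.11 ± 0.210 in stressed and 3.50 ± 0.0738 in non-stressed libraries (SD, n = 5 each). The repressor mean separated the groups by itself, at 3.93 to 4.44 in stressed and 3.44 to 3.61 in non-stressed libraries. Over the 3 activators the mean was 3.46 ± 0.171 in stressed and 3.47 ± 0.211 in non-stressed libraries, with overlapping ranges. The repressor mean minus the activator mean was 0.683, 0.771, 0.601, 0.644 and 0.567 in stressed libraries 1 to 5, against 0.0714, 0.123, 0.229, -0.276 and -0.0285 in non-stressed libraries 1 to 5. All stressed libraries were above all non-stressed ones on this scale. The stressed libraries differed little among themselves (SD 0.0789) and the non-stressed ones more (SD 0.192), non-stressed library 4 being the lowest. The mean difference of this log2 quantity between the groups was 0.63, or 0.72 without Npas2, which is near the detection limit. With 0.1 CPM added in place of 1, where Npas2 weighs more, the mean difference was 0.54 and the groups overlapped. The quantity is a description of genes grouped by role and carries no test. The ratio of Nr1d1 to Arntl, the silencer over its target, was 0.261 to 0.578 in stressed and 0.0626 to 0.188 in non-stressed libraries.

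**Figure D2:**
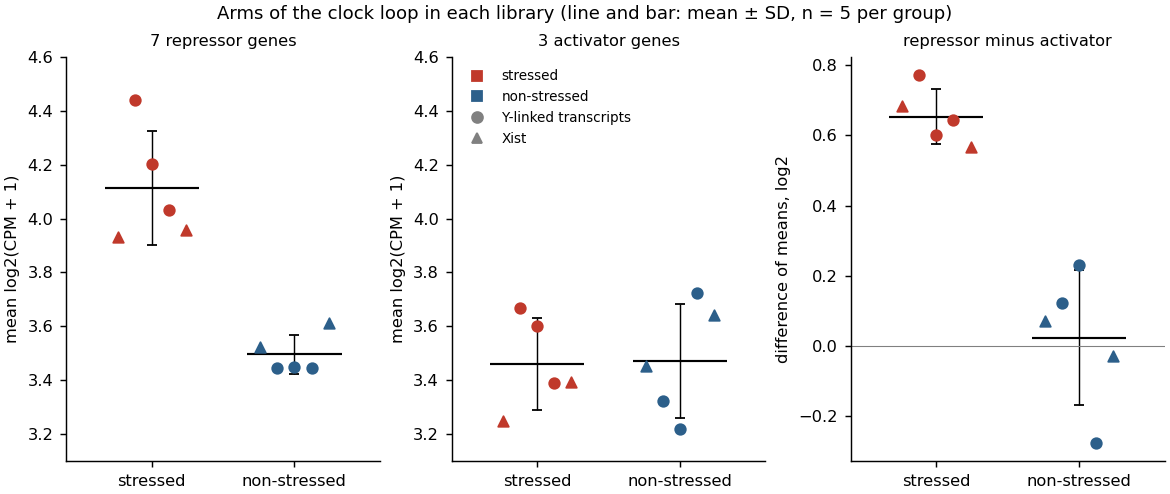
Mean log2(CPM + 1) of the 7 repressor genes, of the 3 activator genes, and their difference, for each library; lines with bars are means ± SD of 5 libraries per group, and the vertical axes do not start at 0. The repressor mean is 4.11 in stressed and 3.50 in non-stressed libraries, the activator mean 3.46 and 3.47, and the difference between arms runs from 0.567 up in stressed libraries and no higher than 0.229 in non-stressed ones.

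Levels of different genes were compared per kilobase of merged exons, in CPM per kb. Per1 was the most abundant gene of the loop at 20.2 ± 6.01 CPM per kb in stressed and 14.0 ± 4.90 CPM per kb in non-stressed libraries (SD, n = 5 each). Cry1 followed at 9.51 ± 1.06 and 6.61 ± 0.505 CPM per kb, and was below Per1 in all 10 libraries. Nr1d2, at 5.88 ± 0.749 and 4.35 ± 0.519 CPM per kb, and Clock, at 4.65 ± 0.812 and 4.42 ± 0.502 CPM per kb, had overlapping ranges, with Nr1d2 higher in 8 of 10 libraries. Below Clock and clear of its range came Arntl, Cry2, Nr1d1 and Per2, whose neighbouring ranges overlapped. Their stressed means were 1.88, 1.90, 2.09 and 1.25 CPM per kb, against non-stressed means of 2.29, 1.31, 0.640 and 0.839 CPM per kb. Nr1d1 therefore stood above Arntl in the mean of the stressed libraries and was the lowest of these 4 in the non-stressed ones. Per3 was next at 0.497 ± 0.0943 and 0.258 ± 0.0887 CPM per kb, and Npas2 last at 0.0894 ± 0.0687 and 0.0577 ± 0.0740 CPM per kb. Merged exon lengths ran from 3077 bases for Nr1d1 to 13727 for Clock, and an unused long exon would lower a gene's value.

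Other clock genes were read from 4 lists. The list of output and auxiliary factors had 7 of 11 genes tested, and all 7 had a log2 fold change above 0, against 50.9% of all genes. The median was 0.48 and the range 0.019 to 0.96, with 0 past the adjusted threshold and 2 higher at an unadjusted p under 0.05 (2.59% of all genes). Tef, a PAR-bZIP factor that acts on D-boxes, stood at 48.95 to 69.9 CPM in stressed and 20.55 to 37.98 CPM in non-stressed libraries (log2 fold change 0.96, SE 0.16, edgeR adjusted p = 0.156). Nfil3, the repressor at the same elements, had a log2 fold change of 0.44 (SE 0.18, edgeR adjusted p = 0.874), Dbp 0.67 (SE 0.38) and Ciart, a repressor of the activator pair, 0.55 (SE 0.34).

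The genes that modify or degrade clock proteins showed no such shift. Of 9 kinase and ligase genes, 7 were tested, 3 higher and 4 lower; their median was -0.015 on the log2 scale, with a range of -0.18 to 0.11. Csnk1e, which encodes casein kinase 1 epsilon, had 0.11 (SE 0.085), Prkaa1, an AMP-activated kinase subunit, -0.18 (SE 0.12), and Fbxw11, a ubiquitin ligase subunit, -0.11 (SE 0.081). Of 9 partner and corepressor genes, all tested, 2 were higher and 7 lower, with a median of -0.070 and a range of -0.22 to 0.20. Hdac3, the deacetylase through which REV-ERB proteins act, had 0.20 (SE 0.13), Ddb1, a subunit of a ubiquitin ligase that takes up cryptochromes, -0.092 (SE 0.065), and Sirt1, a deacetylase, -0.12 (SE 0.13). Of 6 genes known as clock-controlled E-box targets, Ciart included, 4 were higher and 2 lower (median 0.215), with Pim3 at 0.36 (SE 0.18), Usp2 at 0.61 (SE 0.64) and Nampt at -0.12 (SE 0.096). These 3 lists had 0 genes past the adjusted threshold in edgeR and 0 at an unadjusted p under 0.05. The counts describe the lists and do not set one apart from another.

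**Figure D3:**
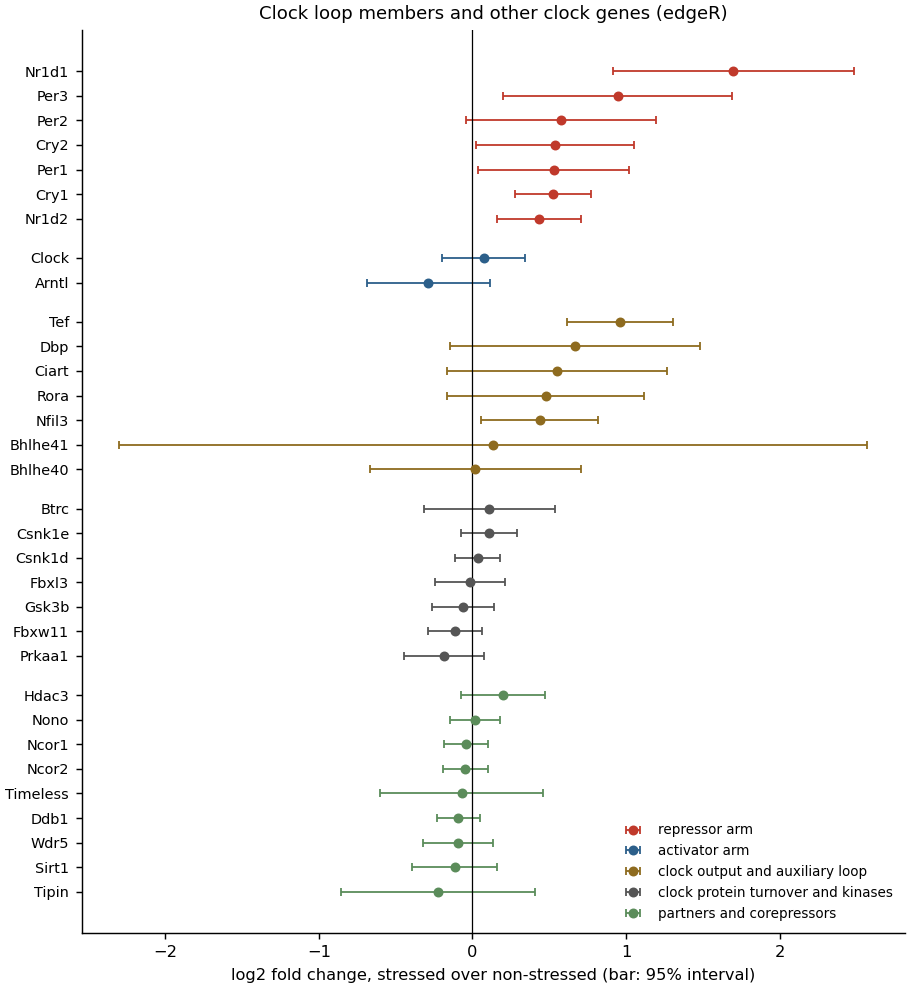
Log2 fold changes, stressed over non-stressed, of the tested genes of the loop and of 3 other lists of clock genes; points are edgeR estimates and bars their 95% intervals. The repressors run from 0.43 for Nr1d2 to 1.70 for Nr1d1, Clock and Arntl lie at 0.073 and -0.29, and the kinase and ligase genes lie between -0.18 and 0.11.

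Genes that acute hormone and stimulus signals induce were read beside Per1. Fkbp5, a glucocorticoid-induced co-chaperone, stood at 25.1 to 58.3 CPM in stressed and 10.65 to 24.4 CPM in non-stressed libraries (log2 fold change 1.14, SE 0.23, edgeR adjusted p = 0.349). Tsc22d3, also a glucocorticoid target, had 0.32 (SE 0.20), Zbtb16 0.040 (SE 0.16) and Sgk1 0.018 (SE 0.18). Non-stressed library 1, which had the highest Per1 of its group at 121.9 CPM, was also highest for 4 of the 8 glucocorticoid and immediate early genes read here: Fkbp5 (24.4 CPM), Tsc22d3 (608.7 CPM), Sgk1 (219 CPM) and Dusp1 (434 CPM). It was not the highest for Zbtb16, Fos or Junb, and was the lowest for Egr1. Stressed library 4, lowest of its group for Per1, was also lowest for Fkbp5 (25.1 CPM), Tsc22d3 (383 CPM), Sgk1 (113 CPM) and Dusp1 (297 CPM). It was the highest of its group for Zbtb16 (19.9 CPM) and not the lowest for Fos, Junb or Egr1. Nr1d1 was not ordered in this way, since stressed library 4 was above 3 of the other stressed libraries for it.

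All 4 immediate early genes were higher at an unadjusted p under 0.05 (2.59% of all genes), but 0 of 4 without stressed replicate 3 and 2 of 4 without non-stressed replicate 2, 3 or 5. Fos had a log2 fold change of 0.76 (SE 0.28), Junb 0.45 (SE 0.20) and Dusp1 0.56 (SE 0.23), each with an edgeR adjusted p of 0.874. Stressed library 3 was the highest of all 10 for Fos (1821 CPM), Junb (1452 CPM), Dusp1 (521 CPM) and Egr1 (447.5 CPM), and Egr1 lay at 2.97 to 12.2 CPM in every other library. Without it the log2 fold changes of Fos, Junb, Dusp1 and Egr1 were 0.48, 0.16, 0.46 and 0.034. In the same fit those of Per1, Per2, Cry1 and Nr1d1 were 0.47, 0.63, 0.56 and 1.52. The part of immediate early or glucocorticoid signalling in the Per values was not tested.

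The difference between the groups was also read within the 4 libraries with Xist and within the 6 with Y-linked transcripts, as a difference of mean log2(CPM + 1). Nr1d1 gave 1.59 in the libraries with Y-linked transcripts and 0.72 in those with Xist. Cry1 gave 0.54 and 0.44 in these classes, Nr1d2 0.38 and 0.47, Per3 0.87 and 0.58, and Cry2 0.51 and 0.33. Per1 gave 0.75 and 0.20, and Per2 0.81 and -0.098. Arntl gave -0.0096 in the libraries with Y-linked transcripts and -0.66 in those with Xist, where both stressed libraries were below both non-stressed ones. The interaction of stress and class, tested in edgeR over 13334 genes, gave 0 of the 9 genes at an adjusted p under 0.05 and 0 at an unadjusted p under 0.05, against 4.3% of all genes at that unadjusted p. Its log2 estimate, Y-linked minus Xist, was 1.06 (SE 0.556, edgeR adjusted p = 1) for Per2 and 0.70 (SE 0.364, edgeR adjusted p = 1) for Arntl. With 2 and 3 libraries per group in these classes, the intervals are wide and no difference between the classes was detectable.

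**Figure D4:**
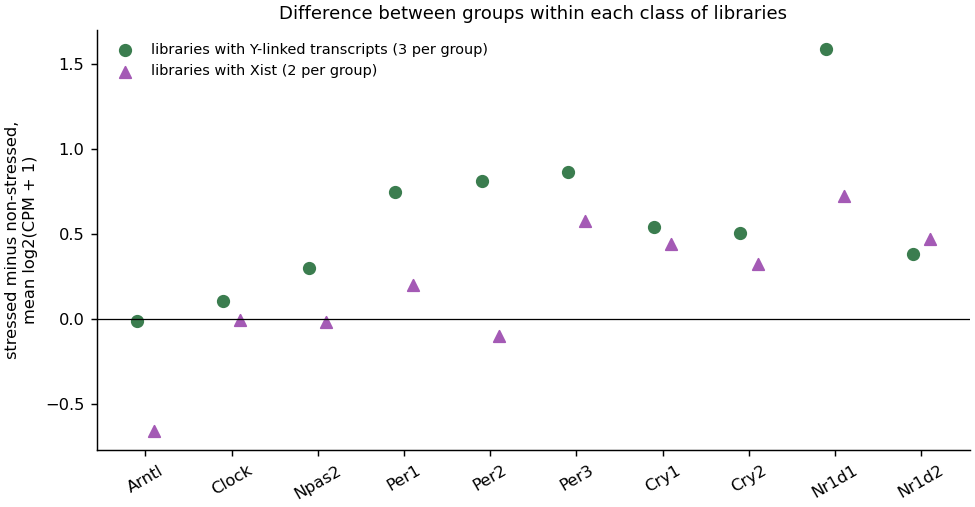
Stressed minus non-stressed difference of mean log2(CPM + 1) for each loop gene, in the 6 libraries with Y-linked transcripts (circles) and the 4 with Xist (triangles). All 7 repressors lie above 0 in the first class, from 0.38 for Nr1d2 to 1.59 for Nr1d1, and all but Per2 (-0.098) in the second.

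Marker lists of other cell types had 0 genes past the adjusted threshold in edgeR, and the summed level of each list overlapped between the groups. All 7 erythroid markers had a log2 fold change above 0 (50.9% of all genes; median 0.72), 5 of them at an unadjusted p under 0.05 (2.59% of all genes), and their summed level was 1171 to 5554 CPM in stressed and 1330 to 2776 CPM in non-stressed libraries. Of 10 neutrophil markers 8 were tested, 6 higher and 2 lower (median 0.51), with a summed level of 1011 to 2031 CPM in stressed and 775.1 to 2165 CPM in non-stressed libraries. Of these, 1 was higher at an unadjusted p under 0.05 (2.59% of all genes) and 0 lower. This was Mmp8 (log2 fold change 0.71, SE 0.14, edgeR adjusted p = 0.349), with all stressed libraries above all non-stressed ones (0.592% of all genes). All 10 T and NK cell markers were tested and 8 were lower (median -0.60), with 11.65 to 73.6 CPM in stressed and 19.0 to 115.1 CPM in non-stressed libraries. The monocyte and macrophage list had 5 higher and 5 lower of 10 (median -0.0087), with log2 fold changes from -1.035 to 0.71. In it 1 gene was higher and 1 lower at an unadjusted p under 0.05 (2.59% and 2.95% of all genes). The B cell list had 6 of 6 lower (median -0.26), and the platelet list 6 of 7 higher (median 0.42). Only 4 of 10 endothelial markers passed the filter, all 4 lower (median -0.29), 3 were at 0 in every library, and the summed level was 33.1 to 79.8 CPM in stressed and 37.1 to 88.3 CPM in non-stressed libraries. Of 4 smooth muscle markers 2 were tested, 1 higher and 1 lower, and none of 5 fibroblast markers was. With the erythroid level as a covariate the log2 fold changes of Nr1d1, Cry1, Nr1d2 and Per3 were 1.80, 0.56, 0.35 and 1.08, and with the neutrophil level 1.82, 0.48, 0.38 and 0.87.

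Among 10110 tested genes with an average of at least 1 log2 CPM (unnamed predicted genes and pseudogenes left out), those most like Nr1d1 over the 10 libraries by Pearson's r of log2(CPM + 1) were Lsp1 (r = 0.911), Ctsa (r = 0.908) and Erich1 (r = 0.905). Those most like Arntl were Rgs1 (r = 0.910), Orc4 (r = 0.896) and Phkg2 (r = 0.892). Of the loop, Cry1 (r = 0.767) and Nr1d2 (r = 0.757) were the most like Nr1d1. After the mean of each group was removed, these values were 0.0090 for Cry1 and 0.26 for Nr1d2. Within a group, Nr1d1 and Cry1 thus did not order the libraries alike. Arntl and Nr1d1 had r = -0.212 over all libraries and 0.384 within groups. These are descriptions over 10 libraries that share a depth range and fall into 2 groups, chosen as extremes of many genes, and carry no p.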

How the data were processed

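Groups and replicate numbers come from the sample titles. Per the labels' protocols, extraction used the PicoPure kit and library preparation a stranded TruSeq kit. The submitters' processing notes list Trimmomatic, STAR, featureCounts and mm10, with no versions; the annotation and strand setting are not given here. The authors deposited raw read counts per Ensembl gene; 48058 of 48526 identifiers matched a symbol, and the other 468 (0.0508% to 0.0636% of a library's counts) were kept.

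The counts were tested with edgeR 4.0.16 (R 4.3.3): filterByExpr at its default minimum count of 10, TMM, a model with group as its one term, the quasi-likelihood F test, and Benjamini-Hochberg adjustment at 0.05. Standard errors are the log2 fold change over the square root of F. The procedure was run on simulated counts as a check of the code. Its recovery rates are not given here, so it does not show how often changes of the size seen here would pass. Positions and exon lengths are from GENCODE (GRCm38). Libraries with over 100 reads of Ddx3y were classed as Y-linked; the others held Xist. Exact permutation tests used log2(CPM + 1).

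The loop's genes and all lists were chosen with earlier results of these data known. Outside the loop, the genes named are up to 4 per clock list with the smallest p, the glucocorticoid and immediate early genes, and the 3 most like Nr1d1 or Arntl; Thra and the single marker genes were named after their values were seen. Alternatives were other scaling factors (RLE, upper quartile), limma-voom (limma 3.58.1), DESeq2 1.42.0, 2 other filters, robust dispersion, a replicate block, Y-linked, neutrophil or erythroid covariates, and libraries left out; leaving Npas2 out of the arm means, and the counts and immediate early genes followed across fits, were chosen after seeing the data.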

Additional observations from a re-analysis of the deposited data

Results flagged for a closer look

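In each group of 5 libraries, the level of each loop gene and the 3 arm summaries were examined for a single library far from the others, over 26 groups in all. No library's gap to its nearest neighbour was above 0.71 of the range of its group, and no loop gene passed the test of whether the difference between stressed and non-stressed libraries itself differs between the Y-linked and the Xist class.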

How the results depend on the processing

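In 22 alternative fits, all 7 repressors kept a log2 fold change above 0, with Nr1d1 from 1.52 to 1.89, Cry1 from 0.45 to 0.56, Nr1d2 from 0.35 to 0.47, Per3 from 0.79 to 1.11, Cry2 from 0.36 to 0.66, Per1 from 0.33 to 0.74 and Per2 from 0.35 to 0.75; Arntl ran from -0.41 to -0.083. Clock turned to -0.022 without the 2 libraries farthest on the principal components (stressed 1 and non-stressed 1). In the libraries with Xist, Clock was at -0.0037 and Per2 at -0.098. Values within the Xist or Y-linked class are differences of mean log2(CPM + 1), a scale unlike that of the edgeR log2 fold changes. The number of loop genes called was 0 except 2 in DESeq2. Loop genes higher at an unadjusted p under 0.05 numbered 4 to 6, against 2.59% of all genes in the main fit. Genes called over the whole table numbered 1, but 19 in DESeq2, 2 in limma-voom, 10 without a low-count filter, 15 with the neutrophil covariate and 1 to 2 with single libraries left out (2 without non-stressed replicate 5). The interaction test called 0 genes, 9 in DESeq2, 26 without a filter, and 0 with any library left out; none of these was a loop gene. The edgeR activator median of -0.11 was -0.19 to -0.056 with single libraries left out. On the log2(CPM + 1) scale the activator median was 0.048 in the 6 libraries of the Y-linked class and -0.33 in the 4 of the Xist class. The edgeR repressor median of 0.54 was 0.43 to 0.63 with single libraries left out. On the log2(CPM + 1) scale the repressor median was 0.75 in the Y-linked class and 0.44 in the Xist class. The difference between arms was 0.55 to 0.68 with single libraries left out, and 0.54 with 0.1 CPM added in place of 1. The number of immediate early genes higher at an unadjusted p under 0.05 was 4, but 0 in DESeq2 or with the erythroid covariate, 1 with robust dispersion, and 0 to 4 with single libraries left out. The cause of these shifts was not tested.

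No source states that the replicate numbers pair the libraries, and the block was kept as an alternative. Group-centred levels of stressed and non-stressed libraries of the same number correlated at 0.216, 0.23, -0.083, 0.271 and 0.292 (mean 0.185), so 4 of 5 pairs but not the third were over 0.1; the 20 pairs of different numbers averaged -0.0464. All 5 same-number pairs shared their Xist or Y-linked class, and 3 of 5 stressed and 3 of 5 non-stressed libraries correlated best with their own number. With the replicate number as a block, 4 genes and 0 loop genes were called, the interaction called 1 gene, and Nr1d1 stood at 1.61 (adjusted p = 0.227). Depth limits Npas2, at 0 to 20 reads per library.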
